A study of Homo sapiens with 3 samples.

Results

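Transcript levels of enzymes and transporters of central carbon metabolism were read on Affymetrix expression arrays in LNCaP cells, an established androgen-responsive human prostate cancer line. The members are 56 genes, chosen by name as the enzymes and transporters of glycolysis, the pentose phosphate pathway, pyruvate entry into the mitochondrial cycle and the citrate cycle. They come from 18131 genes with a probe set annotated to that gene alone. Of the 56, 52 had such a probe set and all 52 were measured, meaning that at least 1 array was above a floor intensity of 25.96, the median of all values. SLC2A3, SLC16A1, SLC16A3 and FH had none and are not among the measured members.

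One array came from cells given siRNA 1 against HOXD-AS1, which is a non-coding transcript, one from cells given siRNA 2 against the same transcript, and one from cells given a negative control siRNA. Each group held 1 array, so no difference below has a replicate check and no p-value is given. All cells received 75 nM siRNA with a lipid carrier. Their medium was RPMI without phenol red, with serum and antibiotics, and the series design puts RNA collection at 48 h. The strands given in the labels are shown because the siRNA is what the series design compares. The source labels of the cells also differ, as given below.

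siRNA 1: gaaagaaggaccaaaguaauu
siRNA 2: gcccuuucugaccugcuuauu
control siRNA: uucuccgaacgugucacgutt

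The source labels name the cells LNCaP-Bic for siRNA 1, LNCaP-AI for siRNA 2 and LNCaP for the control, while the cell line label is LNCaP for all 3. A difference between cells of these names and a difference between siRNAs cannot be told apart. An inhibition rate of 0.23 for siRNA 1 and 0.25 for siRNA 2, relative to 1 for the control, is given without a method. The annotation used here assigned 0 probe sets to HOXD-AS1 (current symbol HAGLR), so the target itself was not read. Another label counts the siRNA target positions on the coding sequence of WDR5, a different gene. Among luminal prostate markers KLK3, which encodes prostate-specific antigen, read 2329 with siRNA 1, 1931 with siRNA 2 and 2602 in the control. All 7 luminal markers with a probe set were measured, whereas 0 of 4 leukocyte markers were. ACP3, prostatic acid phosphatase, read 445 with siRNA 1, 664 with siRNA 2 and 190 in the control. Of 6 markers of androgen receptor-negative prostate lines CD44, CAV1 and AXL were below the floor on every array. The other 3 were each highest with siRNA 2. S100A4 read 87.9 with siRNA 1, 137 with siRNA 2 and 72.4 in the control, VIM read 593 with siRNA 1, 735 with siRNA 2 and 660 in the control, and LGALS1 read 19.9 with siRNA 1, 33.4 with siRNA 2 and 24.1 in the control. Their part in the results was not tested. Of 5 stromal markers 2 were measured, COL3A1 at 28.4 with siRNA 1, 50.4 with siRNA 2 and 17.9 in the control, and COL1A1 at 26.6 with siRNA 1, 33.6 with siRNA 2 and 34.0 in the control. Median intensity was 25.7 with siRNA 1, 26.1 with siRNA 2 and 26.1 in the control. The 3′ to 5′ signal ratio of the array's GAPDH control probe sets was 1.85 with siRNA 1, 2.03 with siRNA 2 and 1.80 in the control. For the ACTB control probe sets it was 22.8 with siRNA 1, 24.0 with siRNA 2 and 17.7 in the control. The part of these ratios in the results was not tested.

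Glycolysis splits glucose into pyruvate in the cytosol, and lactate dehydrogenase turns pyruvate into lactate. The pentose phosphate pathway branches off after the first step and supplies NADPH and ribose. The pyruvate dehydrogenase complex passes pyruvate to the mitochondrial citrate cycle, and its kinases switch the complex off. Normal prostate epithelium is known for secreting citrate instead of oxidising it, and prostate cancer cells for regaining citrate oxidation.

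Most of these genes lay close to their control level with either siRNA. Where 2 log2 differences are given without a label, the first is siRNA 1 minus control and the second siRNA 2 minus control. The median log2 difference from the control over the 52 members was -0.09 with siRNA 1, against 0.00 over all 11286 measured genes, and -0.01 with siRNA 2, against 0.01. With each siRNA 38 members (73.1%) lay within 0.3 of the control on the log2 scale, against 61.9% of all measured genes with siRNA 1 and 66.6% with siRNA 2. A 1.5-fold difference (0.585 on the log2 scale) was used as the threshold. With siRNA 1, 1 member was at least 1.5-fold higher (1.92% of members, against 6.9% of all measured genes) and 3 were at least 1.5-fold lower (5.77%, against 6.16%). With siRNA 2, 1 member was higher by that much (1.92%, against 4.75%) and 2 were lower (3.85%, against 4.68%). The members' shares were near or below those of all measured genes. Members are brighter than most genes, so genes at or above the members' median level (intensity 456) were also compared. Of these, 73.1% of 26 members lay within 0.3 with siRNA 1, against 62.4% of 2617 genes. With siRNA 2 it was 69.2% against 68.0%. At 1.5-fold, 2 of the 26 were lower with siRNA 2 (7.69%, against 4.20%) and 0 with siRNA 1 (against 5.85%). With either siRNA 0 were higher (against 5.62% and 4.47%). At 2-fold, 1 member was higher with siRNA 1, where 1.36% of measured genes were, and 1 with siRNA 2, where 0.789% were. No member was 2-fold lower, where 1.76% of measured genes were lower with siRNA 1 and 0.603% with siRNA 2. Both differences use the same control array, so a value that is off in that array moves both. Intensities come from bulk RNA, in which fewer cells of a kind and less RNA per cell cannot be told apart.

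**Figure D1:**
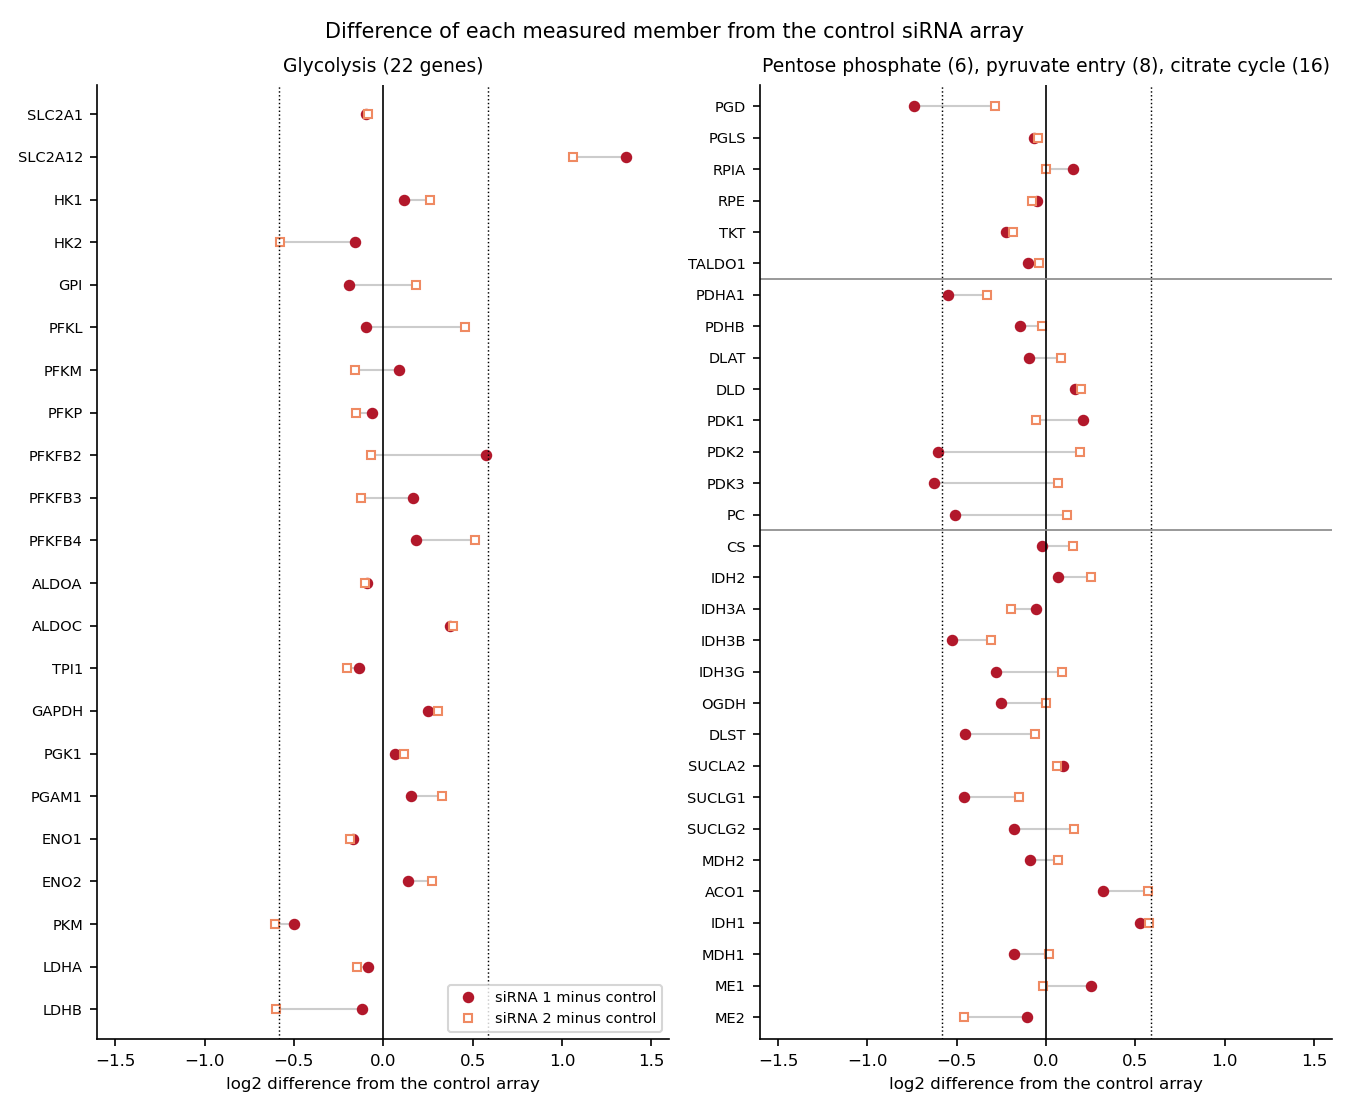
Log2 difference from the control array of each of the 52 measured members, with siRNA 1 as filled circles and siRNA 2 as open squares; dotted lines mark a 1.5-fold difference and horizontal lines separate the pathways. Most points lie between the dotted lines, and SLC2A12 lies farthest to the right with both siRNAs (1.36 and 1.06).

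The ends of the range were taken by SLC2A12, PGD and PKM. SLC2A12, which encodes the glucose transporter GLUT12, read 192 with siRNA 1 and 157 with siRNA 2, against 74.9 in the control. It was the highest member with each siRNA, 2.57-fold and 2.09-fold over the control, and only 0.381% of measured genes differed upward by more with siRNA 1 and 0.664% with siRNA 2. Its other 2 probe sets above the floor differed by 0.51 to 1.01 (log2) with siRNA 1 and by 0.00 to 1.11 with siRNA 2, where the smaller value belongs to a probe set below the floor on the siRNA 2 and control arrays.

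PGD, which encodes 6-phosphogluconate dehydrogenase of the oxidative pentose phosphate branch, read 123 with siRNA 1 and 168 with siRNA 2, against 205 in the control. It was the lowest member with siRNA 1, 1.67-fold below the control (-0.74), and differed by -0.29 with siRNA 2. A second PGD probe set gave -0.80 and -0.35. The siRNA 2 array therefore lay between the others in both probe sets.

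PKM, the pyruvate kinase gene of most tissues and tumours, read 910 with siRNA 1 and 844 with siRNA 2, against 1286 in the control. These are log2 differences of -0.50 and -0.61, and PKM was the lowest member with siRNA 2. Its other 3 probe sets above the floor ranged from -0.44 to -0.28 with siRNA 1 and from -0.50 to -0.37 with siRNA 2. Every one of them was lower with each siRNA than in the control. The probe sets do not say which of the spliced forms, PKM1 or PKM2, they read.

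The sequence before the start of these 3 genes is shown because they mark the ends of the range. Each is the 250 bases upstream of the RefSeq start (GRCh38.p14), read 5′ to 3′ on the gene's strand. Capitals mark matches on either strand to ACGTG, a core bound by hypoxia-inducible factors, or TGACNNNGC, the core of the antioxidant response element bound by NRF2. No other form of the hypoxia core was searched for.

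SLC2A12, chr6:134052625-134052874, minus strand: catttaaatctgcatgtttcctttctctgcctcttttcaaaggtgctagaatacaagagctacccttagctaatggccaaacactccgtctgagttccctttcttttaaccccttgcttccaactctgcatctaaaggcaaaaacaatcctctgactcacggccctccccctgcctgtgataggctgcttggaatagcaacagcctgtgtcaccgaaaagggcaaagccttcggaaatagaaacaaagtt
PGD, chr1:10398814-10399063, plus strand: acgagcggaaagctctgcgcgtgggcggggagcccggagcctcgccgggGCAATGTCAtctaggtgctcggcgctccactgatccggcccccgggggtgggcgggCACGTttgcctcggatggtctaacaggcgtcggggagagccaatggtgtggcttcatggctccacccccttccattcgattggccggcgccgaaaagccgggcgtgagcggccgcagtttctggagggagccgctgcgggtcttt
PKM, chr15:72231191-72231440, minus strand: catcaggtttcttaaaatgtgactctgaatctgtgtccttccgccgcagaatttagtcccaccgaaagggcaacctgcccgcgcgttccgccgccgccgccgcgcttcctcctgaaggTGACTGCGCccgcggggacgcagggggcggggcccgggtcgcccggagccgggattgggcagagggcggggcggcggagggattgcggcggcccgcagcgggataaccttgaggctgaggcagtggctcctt

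The SLC2A12 window held neither motif, the PGD window held 1 match to each, and the PKM window held 1 match to TGACNNNGC alone. RefSeq windows were found for 52 of the 56 listed genes, 85 windows in all, since some genes have several starts. These are not the same 52 genes as the measured members, since SLC16A3, which had no probe set, is among them. ACGTG was present in 16 of 47 glycolysis windows (34.0%), 6 of 14 for pyruvate entry (42.9%), 1 of 6 for the pentose phosphate genes and 2 of 18 for the citrate cycle (11.1%), against 18.5% of all 35116 windows. TGACNNNGC was present in 10 of the 85 (11.8%), against 10.9% of all windows. A match is a run of letters, not a site shown to be bound.

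Glucose transport and the first steps varied by gene. SLC2A1, the widespread glucose transporter GLUT1, read 421 with siRNA 1, 426 with siRNA 2 and 451 in the control. It thus differed by -0.10 and -0.08, and 2 dimmer SLC2A1 probe sets gave -0.55 to -0.39 with siRNA 2. HK1, a mitochondria-bound hexokinase, read 1962 with siRNA 1, 2165 with siRNA 2 and 1809 in the control. HK2, the hexokinase raised in many tumours, read 197 with siRNA 1, 147 with siRNA 2 and 220 in the control. At -0.58 with siRNA 2, HK2 lay just inside the 1.5-fold limit, while the siRNA 1 array was close to the control (-0.16). GPI, which converts glucose 6-phosphate to fructose 6-phosphate, differed by -0.19 with siRNA 1 and 0.19 with siRNA 2.

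The phosphofructokinase genes, which catalyse or tune the committed step, differed by gene and by siRNA. PFKL, the liver-type subunit, read 102 with siRNA 1, 149 with siRNA 2 and 109 in the control, so the siRNA 2 array was high (0.46) and the others alike. Its other probe sets were also higher with siRNA 2, by 0.51 to 0.52. PFKM, the muscle-type subunit, and PFKP, the platelet-type subunit, stayed within 0.16 of the control with either siRNA. The bifunctional PFKFB enzymes set the level of fructose 2,6-bisphosphate, an activator of phosphofructokinase. PFKFB2 read 62.4 with siRNA 1, 39.9 with siRNA 2 and 41.8 in the control, a difference of 0.58 with siRNA 1 that lay just inside the limit. PFKFB4 read 403 with siRNA 1, 506 with siRNA 2 and 355 in the control, or 0.19 and 0.51, and its other probe set gave -0.06 and 0.53. PFKFB3 differed by 0.16 and -0.12. The array farthest from the control was siRNA 1 for PFKFB2 and siRNA 2 for PFKL and PFKFB4.

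Of the 9 enzyme genes of the triose phosphate steps, 7 lay within 0.3 of the control with siRNA 1 and 5 with siRNA 2. PKM and ALDOC were outside that range with both siRNAs, and GAPDH and PGAM1 with siRNA 2. ALDOC, the brain-type aldolase, read 887 with siRNA 1 and 898 with siRNA 2, against 685 in the control, or 0.37 and 0.39. Its other 4 probe sets gave 0.10 to 0.40 with siRNA 1 and -0.04 to 0.23 with siRNA 2. ALDOA, the main aldolase of muscle and most proliferating cells, differed by -0.09 and -0.10. GAPDH, which makes 1,3-bisphosphoglycerate and is often used as a constant gene, read 7542 with siRNA 1, 7846 with siRNA 2 and 6340 in the control. Those differences of 0.25 and 0.31 were matched in direction by the 3 GAPDH control probe sets of the array, which gave 0.29 to 0.37 with siRNA 1 and 0.25 to 0.42 with siRNA 2. PGAM1, phosphoglycerate mutase, differed by 0.16 and 0.33. Its 3 further probe sets gave -0.11 to 0.06 with siRNA 1 and -0.07 to 0.24 with siRNA 2. PGK1, phosphoglycerate kinase, lay within 0.12 of the control in the probe set used and within 0.14 in all 8 others. TPI1, triosephosphate isomerase, differed by -0.14 and -0.20, and the enolase gene ENO1 by -0.17 and -0.19. ENO2, the neuron-type enolase, differed by 0.14 and 0.27. Several of these genes have processed pseudogenes. In all 11 members, among them GAPDH, PGAM1, TPI1, ENO1, ALDOA and LDHA, were read by _x_at probe sets, a type that can cross-hybridise. Further members, among them PKM, PGK1, IDH1 and ACO1, were read by _s_at probe sets, which can also match other transcripts. How much of the signal of any of these genes is their own was not tested.

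At the lactate end, LDHB, the lactate dehydrogenase subunit that favours pyruvate formation, read 5060 with siRNA 1, 3631 with siRNA 2 and 5500 in the control. Only siRNA 2 was low, at -0.60 against -0.12 with siRNA 1, and LDHB had no other probe set. LDHA, the subunit that favours lactate formation, read 6579 with siRNA 1, 6299 with siRNA 2 and 6972 in the control. Its 3 other probe sets stayed between -0.19 and -0.04 with either siRNA.

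**Figure D2:**
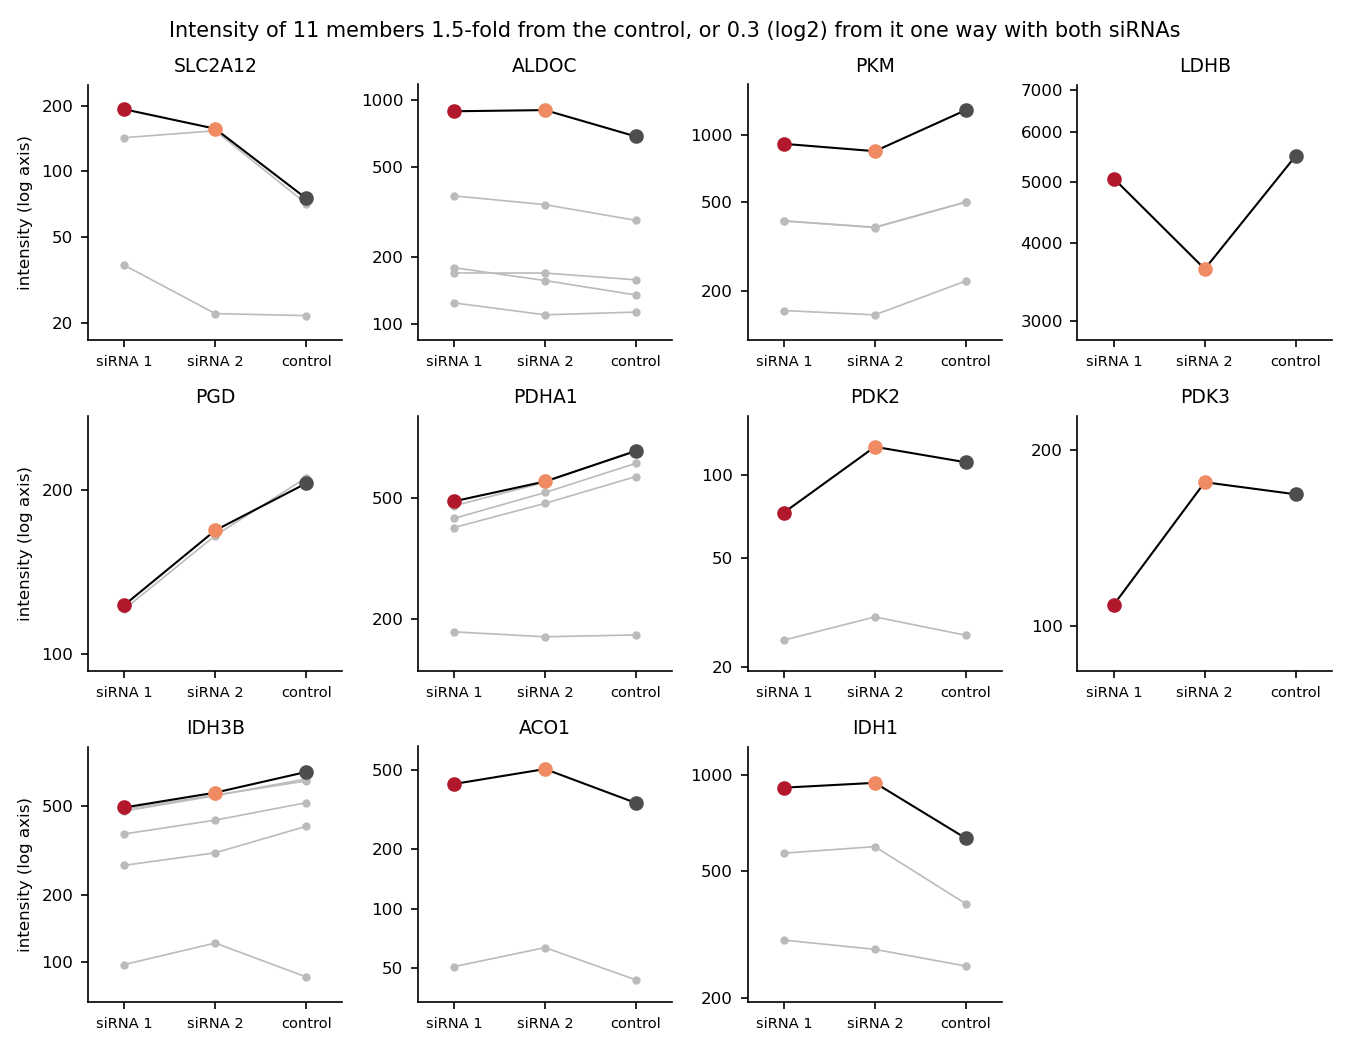
Deposited intensity (log axis) on the siRNA 1, siRNA 2 and control arrays of the 11 members that were at least 1.5-fold from the control with either siRNA or at least 0.3 (log2) from it in one direction with both; coloured points are the probe set used and grey points the gene's other probe sets above the floor. SLC2A12 is lowest in the control (74.9) and PKM highest there (1286), while LDHB is low with siRNA 2 alone (3631).

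Beside PGD, the pentose phosphate members lay close to the control. Over the 6 genes the median was -0.08 with siRNA 1 and -0.06 with siRNA 2. TKT, transketolase, read 1914 with siRNA 1, 1967 with siRNA 2 and 2238 in the control (-0.23 and -0.19, with -0.14 and -0.14 in its other probe set). TALDO1, transaldolase, differed by -0.10 and -0.04, and PGLS, the lactonase step of the oxidative branch, by -0.07 and -0.05. RPE, ribulose phosphate epimerase, differed by -0.05 and -0.08. RPIA, ribose phosphate isomerase, was the highest of the group with siRNA 1 (0.15) and stood at its control level with siRNA 2. With siRNA 2 all 6 lay at or below the control, though 5 of them by less than 0.2.

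The median of the 8 pyruvate entry genes was -0.33 with siRNA 1 and 0.08 with siRNA 2. The value with siRNA 1 depended on the processing: raising the floor to the 75th percentile of all values gave -0.09. It also pools genes of opposite roles. The 4 dehydrogenase genes had medians of -0.12 and 0.03, and the 3 kinase genes that switch the complex off had -0.61 and 0.07. PDHA1, which encodes the catalytic alpha subunit of pyruvate dehydrogenase, read 488 with siRNA 1 and 567 with siRNA 2, against 714 in the control, or -0.55 and -0.33. Of its 4 other probe sets 1 gave 0.03 and -0.02, while the others ranged from -0.61 to -0.56 with siRNA 1 and from -0.35 to -0.29 with siRNA 2. PDHB, the beta subunit, read 1239 with siRNA 1, 1349 with siRNA 2 and 1372 in the control (-0.15 and -0.03). DLAT, the acetyltransferase subunit, differed by -0.09 and 0.09 in the probe set used, but its 5 other probe sets spread from -0.63 to 0.03 with siRNA 1 and from -0.37 to 0.07 with siRNA 2. DLD, the dihydrolipoamide dehydrogenase shared with other complexes, was the highest of the group with siRNA 2 (0.16 with siRNA 1 and 0.20 with siRNA 2).

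The kinases that inhibit the complex differed between the siRNAs. PDK2 read 73.3 with siRNA 1, 127 with siRNA 2 and 112 in the control, or -0.61 and 0.19. Its other probe set, near the floor, gave -0.01 and 0.22. PDK3 read 109 with siRNA 1, 176 with siRNA 2 and 168 in the control, or -0.63 and 0.07, and had no other probe set. In both kinases the siRNA 1 array was low and the siRNA 2 and control arrays were close together. PDK1, known as a hypoxia-induced kinase, went the other way with siRNA 1, at 184 against 160 in the control (0.20), and read 154 with siRNA 2 (-0.06). PC, pyruvate carboxylase, which feeds oxaloacetate to the cycle, read 40.4 with siRNA 1, 62.5 with siRNA 2 and 57.6 in the control. That made -0.51 and 0.12, and -0.22 and 0.18 in its other probe set.

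Of the 16 citrate cycle genes 11 were below the control with siRNA 1 and 6 with siRNA 2, where 5421 and 5297 of the 11286 measured genes were below it. Of the 11 that encode the mitochondrial steps, 9 were below with siRNA 1 (median -0.18) and 4 with siRNA 2 (median 0.06). The mitochondrial malic enzyme gene ME2 was not counted among these 11 and was below the control with both siRNAs. IDH3B, a subunit of the NAD-linked isocitrate dehydrogenase, was the lowest with siRNA 1 and read 492 with siRNA 1 and 573 with siRNA 2, against 709 in the control (-0.53 and -0.31). Its other probe sets included 4 between -0.58 and -0.42 with siRNA 1 and 1 dimmer set at 0.18, which gave 0.50 with siRNA 2. DLST, the succinyltransferase of the oxoglutarate dehydrogenase complex, read 395 with siRNA 1, 520 with siRNA 2 and 542 in the control (-0.46 and -0.06). Its 3 other probe sets above the floor gave -0.51 to 0.00 with siRNA 1. SUCLG1, the alpha subunit of succinyl-CoA ligase, read 885 with siRNA 1, 1092 with siRNA 2 and 1215 in the control (-0.46 and -0.15). OGDH, the first subunit of the oxoglutarate dehydrogenase complex, differed by -0.25 and 0.00, and the isocitrate dehydrogenase subunit IDH3G by -0.28 and 0.09. For these last 4 genes the siRNA 1 array was the low one in the probe set used. CS, citrate synthase, differed by -0.02 and 0.15 in the probe set used and by -0.38 and -0.08 in a dimmer one. MDH2, the mitochondrial malate dehydrogenase, differed by -0.09 and 0.06, and by -0.09 and -0.35 in a dimmer probe set. SUCLA2 and SUCLG2, the nucleotide-specific beta subunits of succinyl-CoA ligase, differed by 0.09 and 0.06 and by -0.18 and 0.16. IDH3A, the remaining NAD-linked subunit, differed by -0.06 and -0.20, and IDH2, the mitochondrial NADP-linked enzyme, by 0.06 and 0.25. With siRNA 1 their other probe sets ran from -0.015 to 0.37 for IDH3A and from -0.31 to 0.045 for IDH2. The counts of genes below the control rest on 1 probe set per gene.

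The highest citrate cycle differences belonged to IDH1 and ACO1. IDH1, the cytosolic NADP-linked isocitrate dehydrogenase, read 910 with siRNA 1 and 943 with siRNA 2, against 632 in the control. Its differences were 0.53 and 0.58, and its other 2 probe sets gave 0.27 to 0.53 and 0.17 to 0.60. ACO1, the cytosolic aconitase that doubles as an iron-responsive RNA-binding protein, read 427 with siRNA 1 and 508 with siRNA 2, against 342 in the control. Its differences of 0.32 and 0.57 were close to the 0.22 and 0.54 of its other probe set. Both genes were lowest in the control array. MDH1, the cytosolic malate dehydrogenase, did not share this (-0.18 and 0.02). The malic enzymes turn malate into pyruvate. ME1, the cytosolic form, differed by 0.25 and -0.02 in the probe set used but by 1.00 and 0.26 in a dimmer one. ME2, a mitochondrial form, read 350 with siRNA 1, 274 with siRNA 2 and 377 in the control. It was the lowest of the citrate cycle group with siRNA 2 (-0.46), and its other probe set gave -0.61 there.

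**Figure D3:**
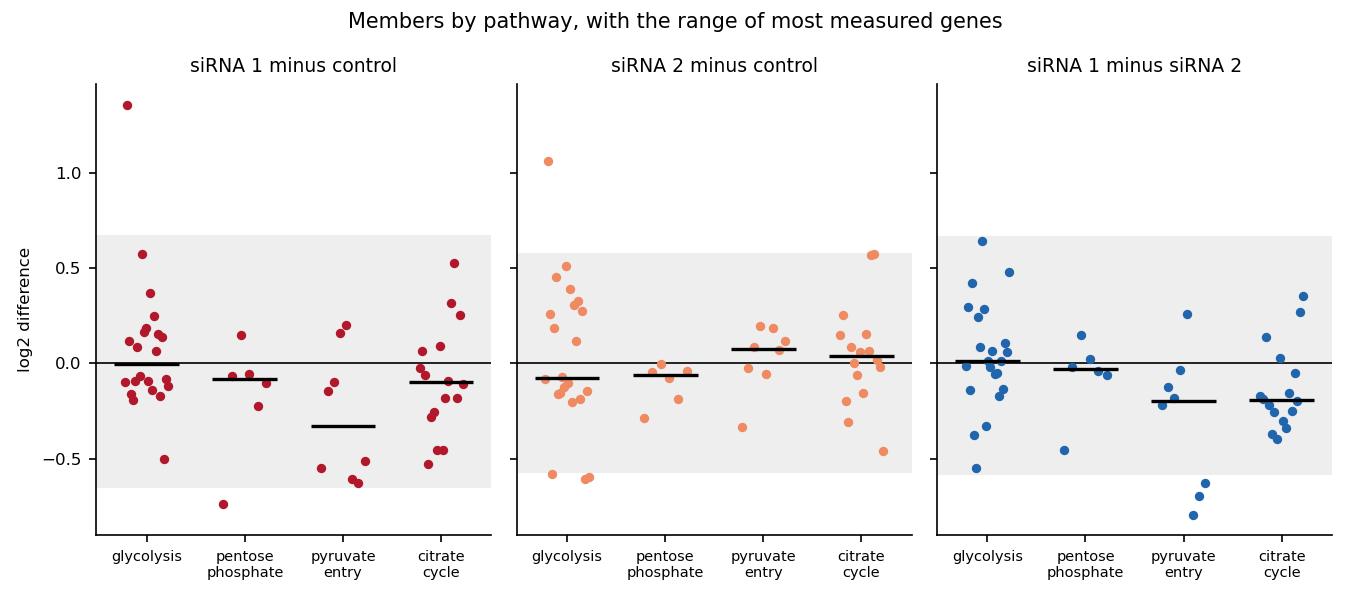
Log2 differences of the 52 measured members by pathway for siRNA 1 minus control, siRNA 2 minus control and siRNA 1 minus siRNA 2; each point is a gene, spread sideways for clarity, bars are pathway medians and the grey band spans the 5th to 95th percentile of all 11286 measured genes. The pyruvate entry median is -0.33 with siRNA 1 and 0.08 with siRNA 2, and most points lie inside the band.

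Set directly against each other, without the control, the siRNA arrays gave members on both sides of 0 in every pathway. Glycolysis genes ranged from -0.55 to 0.65 and citrate cycle genes from -0.40 to 0.36, so a median near 0 does not mean a smaller difference. The median of siRNA 1 minus siRNA 2 was -0.20 over the 8 pyruvate entry genes and -0.19 over the 16 citrate cycle genes. It was -0.03 over the pentose phosphate genes and 0.01 over the 22 glycolysis genes, against -0.02 over all measured genes. At 1.5-fold, 3 members were lower with siRNA 1 than with siRNA 2 (5.77%, against 4.87% of all measured genes), and all 3 belong to pyruvate entry: PDK2 (-0.79), PDK3 (-0.70) and PC (-0.63). At the same threshold 1 was higher (1.92%, against 6.52%), PFKFB2 at 0.65. The share of members past the threshold was close to the background on the lower side and below it on the higher side.

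Other genes of the same pathways, from a list of 61 of which 37 were measured, gave medians of -0.10 with siRNA 1 and 0.01 with siRNA 2. At 1.5-fold with siRNA 1, 1 was higher (2.70%, against 6.9% of all measured genes) and 4 were lower (10.8%, against 6.16%). With siRNA 2, 3 were higher (8.11%, against 4.75%) and 2 lower (5.41%, against 4.68%). TIGAR, a p53 target whose product lowers fructose 2,6-bisphosphate, read 231 with siRNA 1, 107 with siRNA 2 and 104 in the control. Its difference of 1.14 with siRNA 1 was 0.61 in the other probe set. SDHD, an anchor subunit of succinate dehydrogenase, read 277 with siRNA 1 and 490 with siRNA 2, against 665 in the control. At -1.27 and -0.44 it was the lowest of this list with siRNA 1, and its 4 other probe sets gave -1.35 to -0.80 and -0.84 to -0.41. LDHD, a mitochondrial D-lactate dehydrogenase, was high with siRNA 2 alone, at 395 against 171 in the control (1.20), with 191 for siRNA 1. Both subunits of the mitochondrial pyruvate carrier were low with siRNA 1 alone, MPC1 at -0.59 and MPC2 at -0.40, against -0.03 and -0.05 with siRNA 2. GLUD1, glutamate dehydrogenase, which feeds oxoglutarate to the cycle, read 448 with siRNA 1, 264 with siRNA 2 and 528 in the control (-0.24 with siRNA 1 and just short of a 2-fold lower level with siRNA 2). The 5 measured pentose phosphate genes of this list were all below the control with siRNA 1 (median -0.34). Of these, 2 were at least 1.5-fold lower (40.0%, against 6.16% of all measured genes), SHPK (-0.65) and RBKS (-0.59). With siRNA 2, 3 of the 5 were below the control, and SHPK and RBKS differed by -0.09 and 0.64. MPC1, MPC2, GLUD1 and these pentose phosphate genes were singled out after their values were seen.

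Hypoxia-induced genes outside these pathways were set beside the glycolysis members, many of which hypoxia-inducible factors are known to activate. The 14 measured ones had a median of 0.48 with siRNA 1, against 0.00 for the 22 glycolysis genes, and of 0.22 with siRNA 2, against -0.08. Of the 14, 6 were past 1.5-fold upward with siRNA 1 (42.9%, against 6.9% of all measured genes). With siRNA 2, 1 was past it upward (7.14%, against 4.75%) and 1 downward (7.14%, against 4.68%). P4HA2, a collagen prolyl hydroxylase, read 521 with siRNA 1 and 366 with siRNA 2, against 202 in the control. Of the 6 with siRNA 1, P4HA2, P4HA1 and DDIT4 had no other probe set above the floor. BNIP3L differed by 0.84, but its 5 other sets gave 0.34 to 0.40. The other sets of KDM3A gave 0.68 to 0.75 and those of MXI1 0.45 to 0.78. With siRNA 2, 10 of the 14 were above the control and 4 below it. MXI1 was among those below (-0.30), and its 4 other sets gave -0.68 to -0.36 there. The gene past 1.5-fold downward with siRNA 2 was CA12 (-0.79), whose 4 other sets gave -1.16 to -0.46. With siRNA 2, EGLN1 differed by 0.30 and EGLN3 by 0.18, but their other sets gave -0.14 to -0.06 and -0.52. Those of VEGFA ran from -0.56 to 0.34 and those of KDM3A from 0.37 to 0.43. Some members known as hypoxia-induced were picked here after their values were seen. SLC2A1, PGK1, LDHA and ALDOA were each within 0.15 of the control with both siRNAs in the probe set used. With siRNA 2, other probe sets of SLC2A1, LDHA and ALDOA reached -0.55, -0.19 and -0.17. PFKFB4 and ALDOC were above the control and HK2 below it, as given earlier, and PDK1 differed by 0.20 and -0.06. The pick is not complete, and further glycolysis members lay on both sides, such as GAPDH (0.25 and 0.31) and PKM (-0.50 and -0.61). Whether the groups differ was not tested, since genes of 3 arrays are not replicates.

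**Figure D4:**
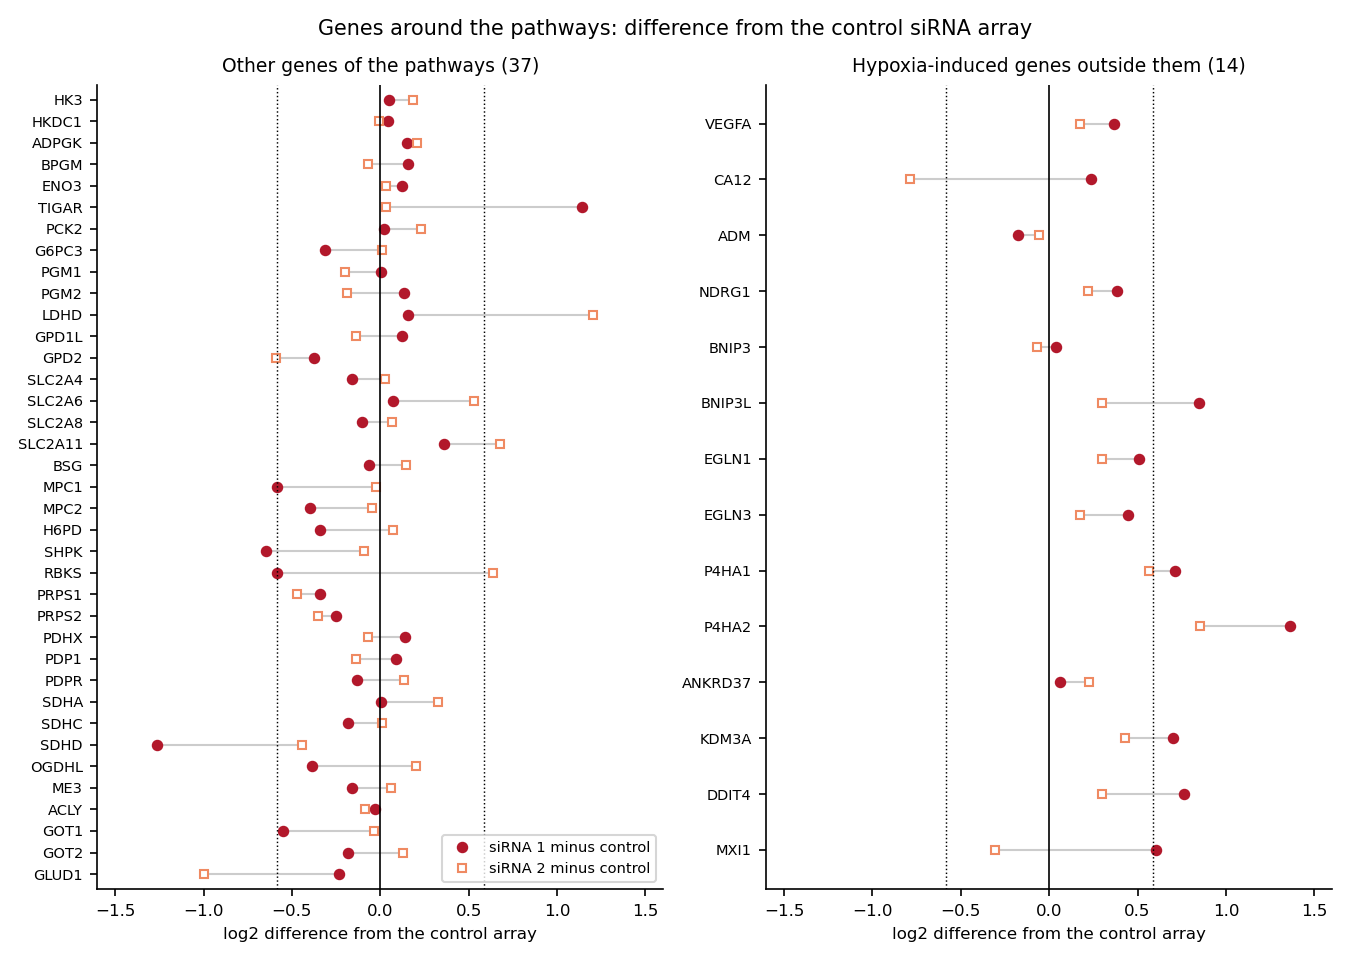
Log2 difference from the control array of the 37 measured other genes of the pathways and of 14 hypoxia-induced genes outside them, with siRNA 1 as filled circles and siRNA 2 as open squares; dotted lines mark a 1.5-fold difference. TIGAR (1.14) and SDHD (-1.27) stand out with siRNA 1 and LDHD (1.20) with siRNA 2, and most hypoxia-induced genes lie to the right of 0.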

How the data were processed

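RNA from 3 cultures, all LNCaP by the cell line label, was amplified to biotin-tagged cRNA and hybridised, 1 array per group, per the labels' protocols. The deposited values are probe set intensities on a linear scale for 49388 probe sets. GCOS 1.4 is named in the submitters' processing notes, while background correction, summarisation and normalization are "not given in the sources used here". Nearly equal array medians mean that a shift of most transcripts one way might not show.

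Intensities were raised to a floor of 25.96, the median of all values, and put on the log2 scale (Python 3.11.15, numpy 2.4.6, pandas 2.3.3). Symbols came from the platform annotation, and 52 of 52 member symbols matched RefSeq through the Entrez identifier. Probe sets with several symbols and array controls represented no gene. Each gene was represented by its brightest probe set, by mean log2 intensity over the arrays. The 52 members had 168 probe sets, 142 of them above the floor, and 38 members had further ones above it. Levels were compared within a gene only. Members were described in full at 1.5-fold with either siRNA or at 0.3 (log2) one way with both, together with the highest and lowest of each pathway. Genes of the other lists were named at a log2 of 1 with either siRNA, or at 1.5-fold one way with both. The functions were run on simulated tables without noise and without the floor. That checks the calculation of differences only, not the floor or the precision of the arrays. With 1 array per group, precision is limited by their number. Members, lists and thresholds were chosen with earlier results of these data known.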

Additional observations from a re-analysis of the deposited data

How the results depend on the processing

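No paired analysis was possible because each group holds 1 array. Among the 11 named members PDHA1 alone turned its direction, to 0.0335 with siRNA 1 when only plain probe sets were kept. Just PDHA1 and SLC2A12 had a measured plain probe set, so the remaining named members never had that check. In that set SLC2A12 was 0.51 with siRNA 1. Across all alternatives a further 18 values of named members moved by more than 0.1 (log2), and 117 did not. Of the 117, 22 came from the floor at the 25th percentile and 22 from no floor. Neither setting could move a member, since each probe set used was above the main floor on every array. SLC2A12 came to 0.67 and 0.38 when the 75th percentile served as floor. PKM came to -0.73 with siRNA 1 and -0.47 with siRNA 2 for averaged probe sets. That average takes in PKM probe sets below the floor on every array, which read 4.58 and 4.18 with siRNA 1, against 15.2 and 9.19 in the control. At the floor, and so without a direction, were PDK2 with siRNA 1 at the 75th percentile floor and SLC2A12 with siRNA 2 in its plain probe set. A median was taken as moved past 0.1 (log2) and a count past 1.5 times. The medians over all members stayed between -0.09 and -0.05 with siRNA 1 and between -0.03 and 0.00 with siRNA 2. The pyruvate entry median with siRNA 1 came to -0.0949 when the floor was the 75th percentile, which puts 1 of its 8 genes below the floor, and -0.0540 with only plain probe sets, which leave 3. The order of the pathway medians was not kept by every alternative. Plain probe sets left 9 members in all and gave glycolysis medians of 0.35 and 0.26 (2 genes) and a citrate cycle median of -0.25 with siRNA 1 (3 genes).

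The counts at 1.5-fold were 1 higher and 3 lower with siRNA 1, and 1 higher and 2 lower with siRNA 2. Lower counts were 0 with siRNA 1 and 0 with siRNA 2 at 2-fold and with plain probe sets. With the floor at the 75th percentile 1 member was lower with siRNA 1 and 0 were higher with siRNA 2, since the control value of SLC2A12 lies below that floor. With averaged probe sets 2 were higher with siRNA 1 and 1 lower with siRNA 2. Quantile normalization gave 2 higher and 1 lower with siRNA 2, and median centring 2 higher with siRNA 1. Plain probe sets gave 0 higher with siRNA 2. The floor at the 25th percentile and no floor moved no median and no count. They could not do so, since the lowest intensity in the probe sets used was 39.9 (PFKFB2 with siRNA 2), above the main floor.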

Other observations

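Probe sets shared between a member and another gene were left out above. The 5 sets annotated to both SLC2A3 and SLC2A14, glucose transporter genes of close sequence, read between 2.35 and 8.95 on the 3 arrays, all below the floor. The set shared by ENO1 and EDARADD read 820 with siRNA 1, 813 with siRNA 2 and 976 in the control, and that shared by ENO1 and TMEM11 read 254 with siRNA 1, 265 with siRNA 2 and 327 in the control.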
